A study of Mus musculus with 6 samples.

Results

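A set of 10 genes of the primary granule programme of granulocyte-monocyte progenitors were read in sorted mouse marrow cells: Mpo, Elane, Prtn3, Ctsg, Ms4a3, Cst7, Nkg7, Srgn, Plac8 and Clec12a. They were taken by name, out of 19057 genes named on the array, as every probe whose annotated symbol is 1 of these 10, which gave 15 of the 45281 probes on the array: 4 for Mpo, 2 each for Ms4a3 and Srgn and 1 for each of the others. The cells were lineage-negative, Kit-positive (LK) marrow cells, a sorted mixture of blood stem cells and of progenitors of several lineages. They came from mice carrying the NHD13 transgene, which encodes the NUP98-HOXD13 fusion of human myeloid malignancy, and from wild type mice, all 3 months old. Each genotype had 3 arrays, numbered 1 to 3, and each array held RNA pooled from 3 mice, so n counts pools and not mice. The promoter that drives the transgene and the strain and sex of the mice could not be read from the labels, which do not state them. The comparison asks how the carriers' progenitors differ in expression from those of wild type mice.

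Primary (azurophil) granules are the first granules a developing neutrophil makes, and their proteins are produced at the promyelocyte stage, just downstream of the granulocyte-monocyte progenitor. Mpo encodes myeloperoxidase, which makes hypochlorous acid. Elane, Prtn3 and Ctsg encode the serine proteases neutrophil elastase, proteinase 3 and cathepsin G, and Srgn encodes serglycin, the proteoglycan core that holds such cargo in granules. The other members mark the same cells or act beside the granules: Ms4a3 encodes a membrane protein of granulocyte-monocyte progenitors, Cst7 cystatin F, an inhibitor of cathepsins, Nkg7 a membrane protein of cytotoxic granules, Plac8 a small cysteine-rich protein of myeloid cells, and Clec12a an inhibitory C-type lectin receptor. Nkg7, Cst7 and Srgn are also expressed in cytotoxic lymphocytes.

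The promoters of the peroxidase and the 3 serine proteases are shown because these genes encode the main enzymes of the granule. Each line holds the 250 bases before the annotated start, 5′ to 3′ on the strand of the gene, as RefSeq gives them for build GRCm38.p6. Capitals mark matches to 4 motifs known from myeloid promoters, searched on both strands. They were GAGGAA for the factor PU.1, the word TGTGGT for the factor RUNX1, and TTGCNNAA for the C/EBP family. For the factor MYB the words were TAACGG and, as further forms of it, CAACGG as well as the forms TAACTG and, last of the set, CAACTG.
Mpo, chr11:87793534-87793783, plus strand: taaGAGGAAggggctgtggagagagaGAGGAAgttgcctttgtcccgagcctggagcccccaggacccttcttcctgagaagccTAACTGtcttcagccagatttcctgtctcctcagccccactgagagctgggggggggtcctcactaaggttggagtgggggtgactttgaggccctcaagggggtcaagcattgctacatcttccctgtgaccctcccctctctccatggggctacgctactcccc
Elane, chr10:79886062-79886311, plus strand: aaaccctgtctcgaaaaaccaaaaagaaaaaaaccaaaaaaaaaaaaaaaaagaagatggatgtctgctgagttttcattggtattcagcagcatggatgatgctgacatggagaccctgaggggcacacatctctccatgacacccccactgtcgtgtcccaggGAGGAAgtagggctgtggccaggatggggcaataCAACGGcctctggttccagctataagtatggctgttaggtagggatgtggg
Prtn3, chr10:79879417-79879666, plus strand: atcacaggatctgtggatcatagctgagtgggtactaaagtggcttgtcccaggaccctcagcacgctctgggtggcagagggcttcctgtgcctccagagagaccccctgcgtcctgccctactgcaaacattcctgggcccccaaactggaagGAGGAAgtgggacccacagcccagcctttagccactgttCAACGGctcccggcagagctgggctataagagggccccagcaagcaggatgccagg
Ctsg, chr14:56102575-56102824, minus strand: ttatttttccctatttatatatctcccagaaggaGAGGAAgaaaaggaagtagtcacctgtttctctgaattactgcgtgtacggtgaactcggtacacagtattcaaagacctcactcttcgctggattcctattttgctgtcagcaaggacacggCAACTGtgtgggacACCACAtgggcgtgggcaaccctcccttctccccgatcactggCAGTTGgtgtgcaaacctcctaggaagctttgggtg

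All 4 windows held the PU.1 letters and all 4 held MYB letters. In Elane, GAGGAA began at base -85 from the start and CAACGG at -51. In Prtn3 the same 6-letter words began at -95 and -56. These 2 genes are neighbours on chromosome 10, with no protein-coding gene between them in the RefSeq table. In Mpo, GAGGAA lay farther out, at -247 and -224, with TAACTG at -166. Ctsg, on chromosome 14, had GAGGAA at -216, MYB letters at -93 and -36, and the only RUNX1 letters of the 4, ACCACA at -79. Over all 10 members 6 windows held GAGGAA, against 23.1% of the 27025 promoters of the same length in the table. MYB letters stood in 6 of 10 members and in 23.6% of promoters, RUNX1 letters in 5 of 10 and 14.2%, and C/EBP letters in 1 of 10 and 9.55%. The 1 with C/EBP letters was Clec12a, as TTGCGCAA. No listed motifs overlapped in the 4 printed windows. These counts describe letters in a window and were not tested.

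The arrays were Illumina-type bead arrays, on which each probe's intensity is a mean over beads. Between 15983 and 16836 probes were detected per array, detection meaning a p under 0.05 against the negative controls, and the median probe had 42 or 43 beads. Across probes, any 2 arrays had a log2 correlation of 0.92 to 0.98. Values below are normalized log2 intensities unless stated, and a value of 1 probe is not set against that of another. NHD13 replicate 2 had the lowest value of every one of the 14 member probes detected on all arrays, which stand for 9 genes. The share of all tested genes that were lowest on that array was not counted. Several lists of other cell types below were lowest on it too, so the trait is not particular to the members. Kit, the receptor used in the sort, was detected on all 6 arrays at 12.33 to 12.99. Of antigens that a lineage depletion removes, Itgam and Cd8a were detected on none, Cd3g on 1 and Cd3e on 3.

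Myeloperoxidase was read by 4 probes, all detected on all arrays. The brightest, ILMN_1249030, measured 15.45, 15.34 and 15.56 in wild type replicates 1, 2 and 3 and 15.49, 13.37 and 15.45 in NHD13 replicates 1, 2 and 3. On this probe NHD13 replicate 2 alone was low, 4.26-fold under the mean of the other 5. Its raw intensity reached 88.7% of the highest of any probe on its array, and for the other 3 probes, in order of brightness, this share was 86.7%, 39.1% and 35.3%. On those 3, NHD13 replicate 2 lay 6.35-fold, 12.03-fold and 14.9-fold under the mean of the other 5, so the fold was smaller on probes nearer to the array maximum. The part of the array maximum in these folds was not tested. The dimmest Mpo probe, ILMN_2719256, measured 13.92, 12.74 and 13.91 in wild type and 12.99, 9.62 and 14.03 in NHD13. On it wild type replicate 2 and NHD13 replicate 1 were also lower than the rest. The difference of the group means, NHD13 minus wild type, was -0.68, -0.93, -1.20 and -1.31 from the brightest to the dimmest probe. All 4 probes had their lowest value on NHD13 replicate 2, by unequal amounts, and none passed the test.

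Neutrophil elastase had the widest range over the 6 arrays, 4.47. Elane (ILMN_1221700) measured 15.15, 13.80 and 15.33 in wild type replicates 1 to 3 and 14.46, 10.87 and 15.19 in NHD13. NHD13 replicate 3 lay among the wild type values, and wild type replicate 2 lay under NHD13 replicates 1 and 3. The groups therefore overlapped. The means were 14.76 ± 0.84 and 13.50 ± 2.31 (SD, n = 3 pools each), a difference of -1.26 ± 1.09 (SE), or 2.39-fold, with a 95% interval of -3.85 to 1.33 and an adjusted p of 0.77 in limma.

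Proteinase 3 and cathepsin G had nearly the same order of arrays. Prtn3 (ILMN_2758029) measured 14.92, 13.74 and 15.09 in wild type and 14.15, 11.23 and 15.15 in NHD13 pools. Ctsg (ILMN_1220236) measured 14.68, 13.70 and 14.82 in wild type and 13.82, 11.08 and 14.84 in NHD13 pools. In both genes NHD13 replicate 3 was the highest of the 6 arrays, so no separation of the genotypes was present. The difference was -1.07 ± 0.96 for Prtn3 (95% interval -3.36 to 1.21, adjusted p = 0.77) and -1.15 ± 0.91 for Ctsg (-3.31 to 1.004, adjusted p = 0.74).

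Of the membrane and progenitor genes, Ms4a3 had the widest spread between wild type pools, with an SD of 1.26. Its brighter probe (ILMN_2719732) measured 13.05, 10.67 and 12.56 in wild type and 11.97, 8.60 and 12.83 in NHD13 pools, a difference of -0.96 ± 1.14 (SE, adjusted p = 0.81). The dimmer probe (ILMN_1250529) gave -0.72 ± 0.65. On NHD13 replicate 2 its detection p was 0.031, near the limit, so the probe was close to background there. Nkg7 (ILMN_1217855) measured 13.11, 11.93 and 13.06 in wild type and 11.96, 10.35 and 13.17 in NHD13 pools (difference -0.87 ± 0.70, adjusted p = 0.75). Here NHD13 replicate 1 stood level with wild type replicate 2, and NHD13 replicate 3 level with the 2 higher wild type pools.

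Plac8 was the member nearest to a separation. Its probe (ILMN_2988143) measured 13.85, 13.35 and 13.76 in wild type and 13.11, 11.87 and 13.41 in NHD13 pools. Only the highest NHD13 and the lowest wild type pool were out of order. The difference was -0.86 ± 0.40 (SE), or 1.81-fold, with a 95% interval of -1.81 to 0.095 and an adjusted p of 0.66. Its wild type SD of 0.27 was far under that of Elane or Ms4a3.

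Of the cathepsin inhibitor and the granule proteoglycan, the latter had the smallest difference of the 9. Cst7 (ILMN_1244891) measured 10.30, 8.91 and 10.07 in wild type and 9.04, 7.62 and 10.27 in NHD13 pools (difference -0.78 ± 0.68, adjusted p = 0.77). Srgn (ILMN_2751527) measured 10.87, 9.43 and 10.36 in wild type and 9.89, 9.15 and 10.34 in NHD13 pools (difference -0.43 ± 0.44, adjusted p = 0.79). In Srgn wild type replicate 2 and NHD13 replicate 2 lay 0.28 apart, and the second probe (ILMN_2722732) differed by -0.36 ± 0.38. Clec12a (ILMN_1230533) was not well above background: it was detected on wild type replicate 3 alone, at a detection value of 0.044 against the limit of 0.05, with raw intensities of 142 to 172 on all 6 arrays against array medians of 145 to 163. It was not tested and gets no fold.

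**Figure D1:**
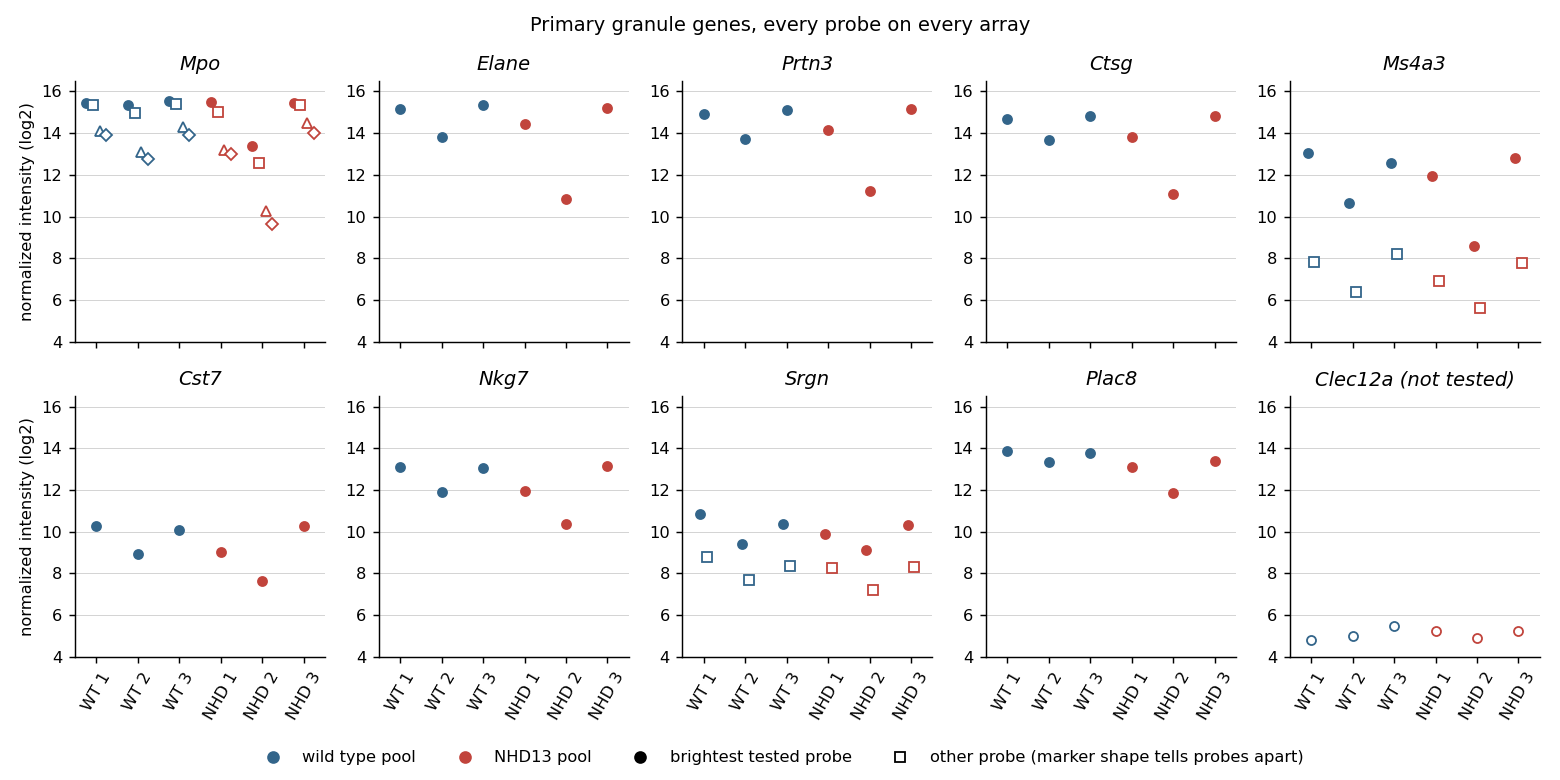
Normalized log2 intensity (y axis) of all 15 probes of the 10 genes on the 6 arrays (x axis, WT for wild type), filled for the brightest tested probe of a gene and open for its other probes, drawn side by side. NHD13 replicate 2 is the lowest point of every panel except Clec12a, while NHD13 replicate 3 lies level with wild type replicates 1 and 3 in most.

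Bead error was small beside these spreads. The standard error over beads was between 1.65% and 9.53% of the raw intensity over all 15 probes and 6 arrays, whereas the raw intensity of Elane differed 22.3-fold and that of Prtn3 15.8-fold between the highest and the lowest array. Among wild type pools alone the SD of Elane, 0.84, was larger than that of 98.1% of the 9000 tested genes, and the SDs of Prtn3, Ctsg, Ms4a3, Cst7, Nkg7 and Srgn exceeded those of 95% to 99.3%. Plac8, with an SD of 0.27, exceeded 63.7% of genes, and the brightest Mpo probe, with 0.11, exceeded 20.5%. The other 3 Mpo probes, in order of brightness, had wild type SDs of 0.22, 0.64 and 0.68, so the SD of Mpo depended on the probe.

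Across the genotypes 0 of the 9 tested members passed an adjusted p of 0.05 in limma, against 0.678% of all tested genes (61 of 9000) in either direction and 0.433% lower in NHD13. At an unadjusted p under 0.05 the count was also 0, against 7.67% of all tested genes. The smallest adjusted p was 0.66, of Plac8. All 9 differences lay below 0, as did 45.9% of all tested genes, with a median of -0.87 against 0.03 over all genes. No member had its 3 NHD13 values all below its 3 wild type values, which 5.83% of tested genes had. In bulk RNA, fewer cells of a type and less RNA per cell cannot be told apart. The replicate numbers are shared by the genotypes. Deviations of same-numbered arrays went together for numbers 2 and 3, and less clearly for number 1. A fit with the number as a block was therefore also made. In it 0 of 9 members passed, against 0.8% of genes, with adjusted p from 0.23 for Plac8 to 0.47 for Mpo. At an unadjusted p under 0.05 that fit gave 2 of 9 members, Plac8 and Nkg7, against 16.7% of all tested genes. The dimmer Ms4a3 probe, which does not stand for its gene in the count, had the smallest unadjusted p of the member probes there, with an adjusted p of 0.16 over probes.

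Read by number, the 3 pairs of arrays differed in size and direction. Each such difference compares 1 NHD13 with 1 wild type pool and has no replicate error. In the arrays numbered 2, Elane was 7.61-fold, Ctsg 6.13-fold, Prtn3 5.68-fold and Ms4a3 4.21-fold lower in the NHD13 pool. Mpo was 3.91-fold lower by its brightest and 8.67-fold by its dimmest probe, and Srgn 1.21-fold. By the brightest probes the proteases stood farthest apart in this pair and the proteoglycan least. In the arrays numbered 1, Cst7 was 2.39-fold, Nkg7 2.22-fold, Ms4a3 2.12-fold and Srgn 1.97-fold lower in the NHD13 pool, and Elane 1.62-fold. The brightest Mpo probe stood at 0.04 in log2 there and the dimmest at -0.93. Cst7 thus came before the 3 proteases here, unlike in the arrays numbered 2. The place of Srgn depended on the probe, since its second probe was 1.41-fold lower. In the arrays numbered 3 the 9 differences ran from -0.35 for Plac8 to 0.26 for Ms4a3 by the brightest probes, and the median was 0.02. The dimmer Ms4a3 probe stood at -0.45 there, opposite in sign to the brighter one.

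A line at a difference of -0.5 or below was drawn after the values were seen. By the brightest probes it was met by 8 of 9 members in the arrays numbered 1 (16.4% of all tested genes; all but Mpo), by 8 of 9 in those numbered 2 (13.9%; all but Srgn) and by 0 of 9 in those numbered 3 (7.61%). These exceptions depended on the probe. In the arrays numbered 1 the Mpo probes ILMN_2925094 and ILMN_2719256 stood at -0.89 and -0.93. In those numbered 2 the second Srgn probe stood at -0.499. The medians over the members were -0.86, -1.97 and 0.02 for numbers 1, 2 and 3, and over all genes 0.02 to 0.03. Without NHD13 replicate 2 the median over members was -0.07, with Mpo, Elane, Prtn3 and Ms4a3 above 0 by their brightest probes. On the other probes of Mpo and Ms4a3 the mean of NHD13 replicates 1 and 3 lay below the wild type mean, for Mpo by little. The median over members was -1.54 without NHD13 replicate 3 and -0.42 without both arrays numbered 2.

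**Figure D2:**
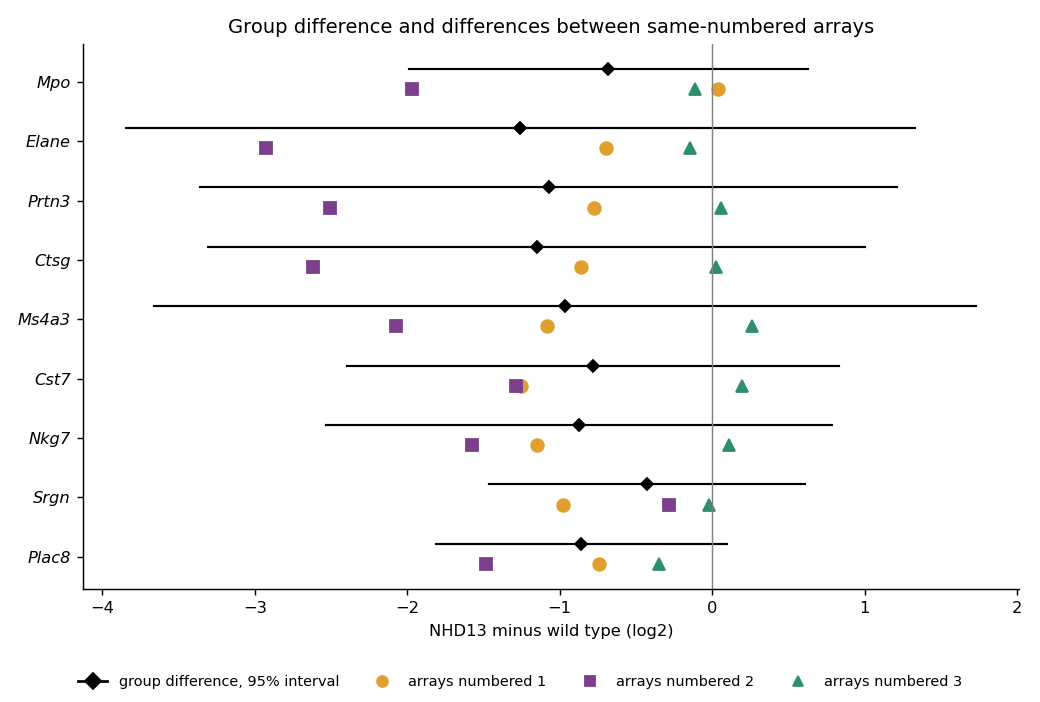
NHD13 minus wild type in log2 (x axis) for the 9 tested members (y axis), by the brightest probe of each: black diamonds are differences of group means with 95% intervals (n = 3 pools each), coloured points are differences between arrays of 1 number. The intervals are from the fit without the replicate block, and all span 0. With the block, Plac8 and Nkg7 had an unadjusted p under 0.05 in limma. The arrays numbered 3 lie near 0, and those numbered 2 lie lowest except in Srgn.

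**Figure D3:**
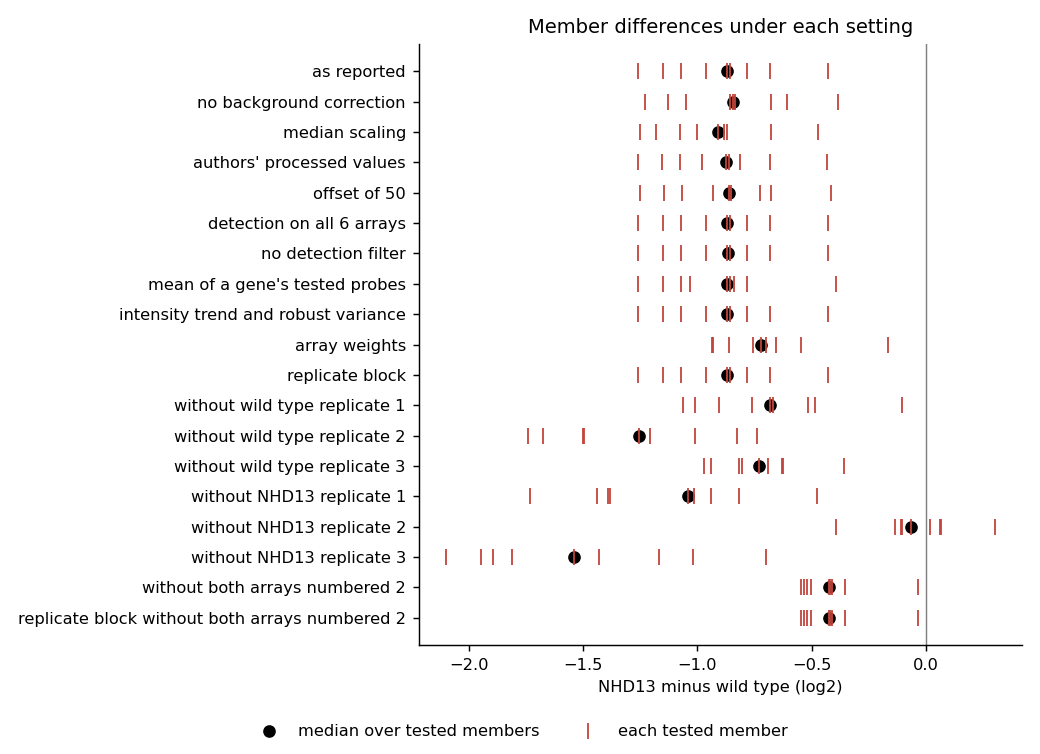
NHD13 minus wild type in log2 (x axis) under each processing setting or left-out array (y axis), with red ticks for the members tested in the fit as reported and black points for the median over all members tested under that setting. The median stays between -0.91 and -0.72 under settings that keep all arrays and is -0.07 without NHD13 replicate 2.

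Other contents of primary granules and lysosomes passed no test. Of 11 listed genes 8 were tested and 0 rose or fell, with all 8 differences below 0 and a median of -0.56. Lyz2 and Lyz1, which encode near-identical lysozymes whose probes may read both, measured -0.86 ± 0.86 and -0.88 ± 0.74 (SE). Both were lowest on NHD13 replicate 2. Cd63, a membrane protein of these granules, measured 12.33, 11.20 and 12.51 in wild type and 10.79, 9.02 and 12.42 in NHD13 pools (-1.27 ± 0.82, adjusted p = 0.71). Ctsd, the aspartic protease cathepsin D, was detected on 3 of 6 arrays and measured -0.15 ± 0.23.

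Genes that process and carry the proteases lay on both sides of 0, 7 below and 2 above. Of 11 listed 9 were tested and 0 passed, with a median of -0.11. Ctsc, which encodes the dipeptidyl peptidase that activates the granule serine proteases, measured 10.49, 9.13 and 10.38 in wild type and 9.25, 8.55 and 10.30 in NHD13 pools (-0.63 ± 0.53, adjusted p = 0.76). Ctsh, cathepsin H, measured -2.07 ± 1.40 with detection on 2 of 3 NHD13 arrays, and Calr, a chaperone of myeloperoxidase, -0.73 ± 0.40 (adjusted p = 0.69). Ctsb, cathepsin B, measured 0.12 ± 0.29.

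Among 5 tested inhibitors 0 passed. Slpi, an inhibitor of elastase and cathepsin G, measured 11.96, 10.31 and 11.93 in wild type and 10.08, 6.996 and 11.22 in NHD13 pools, a difference of -1.97 ± 1.06 (adjusted p = 0.69). As in the members, NHD13 replicate 2 was lowest. Serpinb1a, which inhibits all 3 serine proteases, measured -0.49 ± 0.54, and Serpinb6a, an inhibitor of cathepsin G, 0.11 ± 0.20. The cystatins Cst3 and Cstb measured -0.50 ± 0.39 and -0.16 ± 0.20.

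Transcription factors that act on granule genes were all detected, and 0 of 10 passed (10 of 10 below 0, median -0.57). Cebpa, which starts the granulocytic programme, measured 8.06, 6.56 and 7.54 in wild type and 6.66, 4.60 and 7.06 in NHD13 pools (-1.28 ± 0.68, adjusted p = 0.69). On NHD13 replicate 2 it was not well above background. Spi1, which encodes PU.1, measured 8.27, 7.01 and 8.45 in wild type and 7.35, 5.74 and 8.31 in NHD13 pools (-0.78 ± 0.68, adjusted p = 0.77). Both factors had the lowest value on NHD13 replicate 2, as the members did. Cebpe, needed for later granules, measured -0.51 ± 1.09, Cebpb -0.40 ± 0.59 and Cebpd -0.23 ± 0.15. Runx1 and its partner Cbfb measured -0.40 ± 0.25 and -0.64 ± 0.34, and Myb -0.12 ± 0.17, with all 6 Myb values between 8.52 and 8.95.

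Receptors and surface proteins of these progenitors gave 0 of 8 tested genes passed, 8 below 0 and a median of -1.09. Csf1r, which binds macrophage colony-stimulating factor, measured -1.04 ± 0.48 (adjusted p = 0.66) and Csf3r, which binds the granulocyte factor, -1.14 ± 0.77 (adjusted p = 0.71). Csf2ra and Csf2rb, chains of the granulocyte-macrophage factor receptor, measured -0.72 ± 0.56 and -0.08 ± 0.58.

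Genes of later neutrophil granules differed from the members in the size of the gaps between arrays and, for most, in which array was lowest. Lcn2 ranked the 6 arrays in the same order as Elane, but Ltf, Camp and Ngp were lowest on wild type replicate 2. Ltf, lactoferrin, measured 10.54, 7.88 and 13.12 in wild type and 9.60, 8.39 and 12.57 in NHD13 pools, so both arrays numbered 3 were high and both numbered 2 low. Camp, Lcn2 and Ngp measured differences of -0.39 ± 1.69, -0.77 ± 1.48 and -0.43 ± 1.55 between the genotypes, and 0 of 10 tested genes of this list passed (9 below 0, median -0.34). In the arrays numbered 2, where the primary granule proteases differed most, the NHD13 pool stood at 0.51 for Ltf, 0.24 for Camp, 0.03 for Ngp and -0.53 for Lcn2 relative to the wild type pool. Of the 10 tested genes of the list 7 lay above 0 in that pair and 3 below. On the mean over list genes, centred on the 6 arrays, the members stood at 0.87, -0.30 and 0.78 in wild type and 0.03, -2.16 and 0.78 in NHD13 replicates 1 to 3. The later granule genes stood at 0.36, -2.21 and 2.34 and at -0.50, -2.06 and 2.09.

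**Figure D4:**
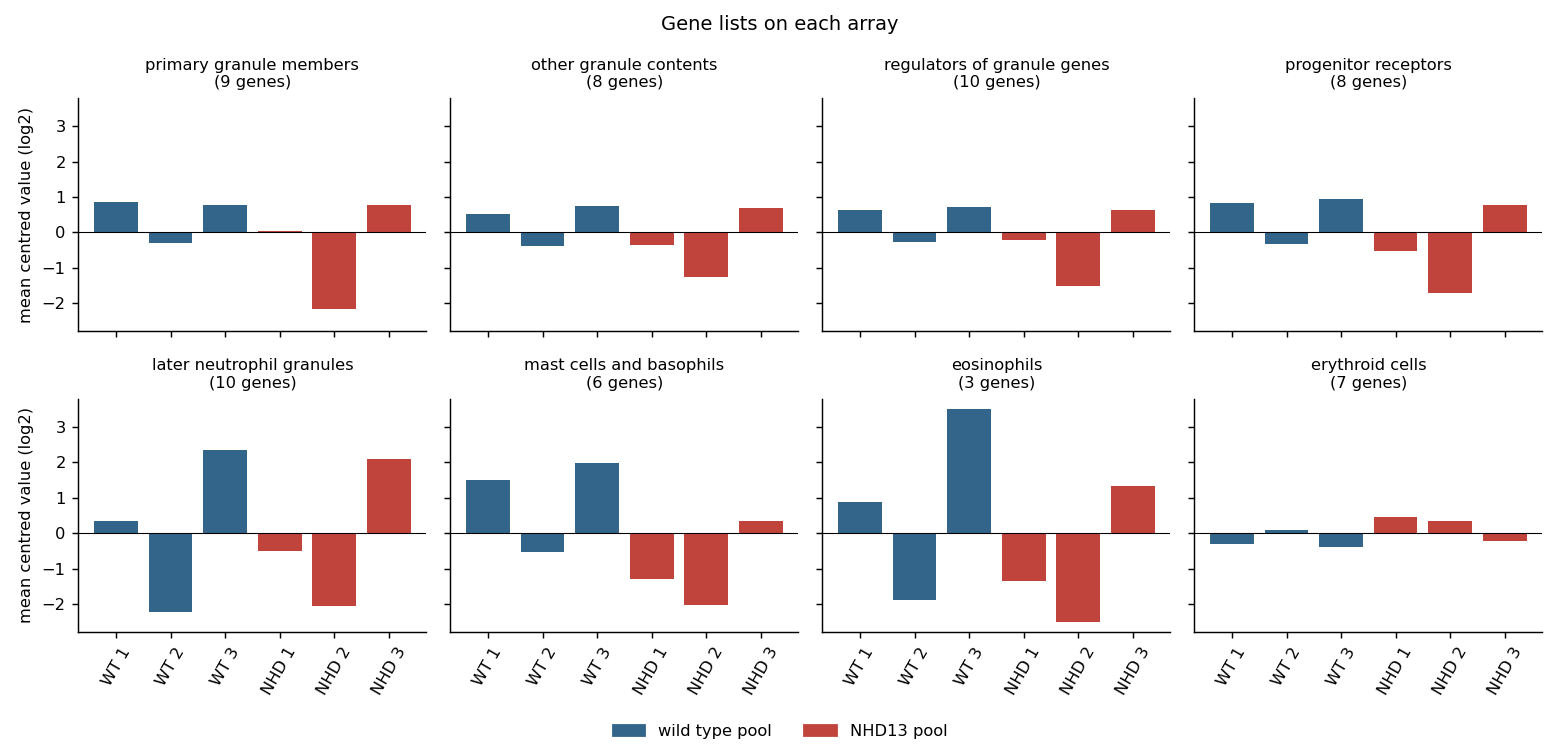
Mean over the tested genes of a list of log2 values centred on the 6 arrays (y axis), for each wild type (WT) and NHD13 array (x axis). The members, other granule contents, regulators and receptors are lowest on NHD13 replicate 2, and later neutrophil granule genes are low on both arrays numbered 2 and high on both numbered 3. The erythroid mean stays between -0.38 and 0.46, but single erythroid genes range wider, with Hba-a1 over 2.11 and Gata1 over 1.72.

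Genes whose profile over the 6 arrays lay nearest to the members' mean profile were found by the root mean square distance of centred log2 values, over all tested genes that are no members. The 8 nearest were Fndc3b, Gria3, Bace1, Alas1, Mpnd, Rab32, Rasgrp2 and Csf3r, at distances of 0.14 to 0.20, against a median of 1.12 over all tested genes. Alas1, the housekeeping first enzyme of haem synthesis, measured 13.34, 12.14 and 13.25 in wild type and 12.48, 10.80 and 13.29 in NHD13 pools. Among the members Nkg7 lay nearest to their mean, at 0.18, and Srgn farthest, at 0.60. The members' own distances are a description, since the mean was made from them.

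Markers of other cells in the sort moved with some of the same arrays, and their part in the members' values was not tested. Of 7 mast cell and basophil genes, 6 were tested, 0 passed and the median was -1.52. Their summed normalized intensity was 3506 to 15427 in wild type and 645.1 to 9909 in NHD13 pools, lowest on NHD13 replicate 2, and Tpsb2 was detected on no array. All of the other 6 were detected on each wild type array, and 2, 3 and 5 of them on NHD13 replicates 1, 2 and 3. Of 6 eosinophil genes 4 had a probe named here and 3 were tested (0 passed, median -1.55), with sums of 365 to 36948 and 194 to 14717. These sums came mostly from Prg2, and Epx and Prg3 were detected on 3 of 6 arrays each. Il5ra was detected on no array. Monocyte and macrophage genes had sums of 999.7 to 2567 and 203 to 1938 (6 tested of 7, 0 passed, median -1.02). The lowest sum of each of these 3 lists was that of NHD13 replicate 2, as for the members.

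Erythroid genes had sums of 47988 to 56303 in wild type and 50036 to 70399 in NHD13 pools (7 tested of 8, 0 passed, all above 0, median 0.44). Cytotoxic lymphocyte genes were of interest because Nkg7, Cst7 and Srgn are shared with such cells. Of 9 with a probe, Gzmb, Ncr1, Klrb1c and Cd8a were detected on no array and Klrd1 and Cd3g on 1 each. Cd3e and Ccl5 were detected on 3 of 6 arrays each, and Prf1 on all 6, at 9.02 to 10.14. The sums of this list were 968 to 1263 and 735 to 1407 (3 tested, 0 passed, median -0.20), mostly from Prf1, which measured -0.20 ± 0.30. B cell genes had sums of 463 to 1967 and 287 to 749 (4 tested of 7, 0 passed, median -1.15; Blnk on no array). Dendritic cell genes had sums of 761 to 1868 and 490 to 839.8 (3 tested of 6, 0 passed, median 0.25; Cd209a, Flt3 and Itgax on none), and H2-Ab1 passed with the replicate block (-1.36, adjusted p = 0.037). Kit, by contrast with the members, lay within 0.66 over all 6 arrays (-0.22 ± 0.19, adjusted p = 0.77).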

How the data were processed

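Gene expression was measured in 6 RNA pools, 3 per genotype, grouped by the sample titles. The deposited table holds, per the file headers, mean bead intensity values without background subtraction or normalization, the number of beads (an other unit), a bead standard error on the intensity signal scale and a detection p-value. The authors' processed table holds linear intensity values, background-subtracted and brought to one distribution, judged from its values. Scanner software is not given in the sources used here. Every named column was mapped to a sample by its genotype word and number.

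Unprocessed intensities were normalized by neqc of limma 3.58.1 in R 4.3.3 (offset of 16, quantile, log2). Probes with a detection p under 0.05 on at least 3 of 6 arrays were tested, 16518 of 45281, with lmFit and eBayes, two-sided, adjusted by Benjamini-Hochberg. Genes were adjusted over 9000 genes, each by its brightest tested probe, and 61 passed, 22 higher and 39 lower; over probes 67 passed. Symbols came from the platform annotation, 1 each for 34885 probes, and RefSeq (GRCm38.p6) changed 0 of them. All 10 members had a promoter in the RefSeq table; where it lists several starts the most upstream was used. The fit was tested on simulated data with independent noise, smaller than the spread of most tested probes. That does not show how it performs on genes as variable as most members.

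Same-numbered arrays correlated in their deviations from the group means at 0.19, 0.67 and 0.54 across probes, and arrays of different number and genotype at -0.61 to 0.24. All 3 were over 0.1, but the value of number 1 lay under the highest between arrays of different number and genotype. The numbers were therefore read as a possible pairing, from the data. The labels do not say what a number shares. Printed SEs and intervals are from the fit without the replicate block. Nothing says that pools came from separate preparations beyond their mice, so p-values measure the spread between these pools. No array repeated another: 22.5% to 47.6% of probes differed by more than 2 bead standard errors. The number of arrays limits the precision.

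Members, gene lists and tests were chosen with earlier results of these data known. The text names all members, the first 4 tested genes of each list in a fixed order (8 for regulators, all of a list of 5), any called list gene, the 8 nearest profiles, and marker genes beside their lists. Alternatives were other background, scaling and offset choices, the authors' values, 2 detection filters, probe averaging, a variance trend, array weights, the replicate block and left-out arrays.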

Additional observations from a re-analysis of the deposited data

How the results depend on the processing

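Over 18 alternatives 0 members passed in any, where the lowest adjusted p in limma was 0.14 (Plac8 with array weights), and 158 of 162 member differences kept their sign. The 4 that turned were Mpo, Elane, Prtn3 and Ms4a3 without NHD13 replicate 2, by the brightest probe of each. The other probes of Mpo and Ms4a3 did not turn there. Part of the count of 158 was fixed in advance. The 2 detection filters, the variance trend and the replicate block change a member's error and not its difference. Probe averaging does the same for a gene with 1 tested probe. Without both arrays numbered 2, the block also repeats the difference of the fit without it. With 1 array left out, Mpo ran from -1.04 (without NHD13 replicate 1) to 0.0195, Elane from -2.10 to 0.0597, Prtn3 from -1.89 to 0.0674 and Ms4a3 from -1.81 to 0.30, the lowest of the last 3 being without NHD13 replicate 3. The median over members lay between -0.91 (median scaling) and -0.72 (array weights) with all arrays, at -0.88 with the authors' values, at -0.87 with the replicate block, between -1.54 and -0.07 with 1 array left out, and at -0.42 without both arrays numbered 2. The replicate block changed no member's call. Over all genes, 61 passed as reported, 72 with the replicate block, 37 without background correction, 10 with the authors' values, 8 with detection required on all 6 arrays (7499 genes tested), 408 with array weights and 18 without both arrays numbered 2; the last gave 1 with the replicate block, an alternative added after seeing the data. With 1 array left out the count ran from 12 (without wild type replicate 1) to 78 (without NHD13 replicate 3), and was 29 and 19 without wild type replicates 2 and 3 and 19 without NHD13 replicate 1. Detection on all 6 arrays leaves fewer genes, and the left-out arrays leave fewer samples; for the other settings, which keep 9000 genes and all arrays, the cause was not tested. Array weights ran from 0.35 for NHD13 replicate 3 to 5.02 for NHD13 replicate 1. Scaling moved the median of all genes by under 0.1: it was 0.03 as reported and -0.04 under median scaling. Clec12a, near background, gave 0.02 ± 0.20 (SE) without a detection filter.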
